A study of Mus musculus with 16 samples.

Results

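A set of 329 genomic tiles of 1000 bases had low DNA methylation in starting fibroblasts and intermediate methylation after 12 days of chemical reprogramming. A tile entered the set when its level was under 10% in both fibroblast libraries and 15% or more in both day 12 libraries. The level of a tile is the sum of methylated reads over the sum of all reads at its CpG sites. Only sites with at least 10 reads in all 16 libraries were used, on chromosomes 1 to 19, and a tile needed at least 3 of them. There were 92383 such tiles, of which 7753 were under 10% in both fibroblast libraries, and the 329 tiles were 4.24% of those 7753. The D0 and D12 levels chose the tiles, so these levels are given below as a description with no test.

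Mouse embryonic fibroblasts (MEFs) of 129XOG2 embryos were the starting cells, called D0, and were grown in serum medium. OG2 mice carry a green fluorescent reporter of the pluripotency gene Pou5f1. The groups D2, D4, D6, D8, D10 and D12 are reprogramming intermediates of these cells, collected at 2-day steps in a reprogramming medium of small molecules. The iPSC group is induced pluripotent stem cells of the same strain, seeded on feeder cells in a serum-free medium with LIF, CHIR99021, which inhibits GSK3, and PD0325901, which inhibits MEK. All groups carry the same strain background, and the day or passage of the iPSCs and the removal of feeder cells before extraction are not stated. The 8 groups had 2 libraries each, made by reduced representation bisulfite sequencing (RRBS), which cuts DNA with MspI and reads fragments rich in CpG. Nothing in the labels says that the 2 libraries came from separate cultures, and p-values cover only the spread between libraries, which may be technical. Coverage summed over listed sites ranged from 39011213 to 107834007 per library, with a read counted once at each site it covers. The median coverage of a listed site ranged from 18 to 27 reads.

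In mammals, CpG dinucleotides are methylated over most of the genome, and dense clusters of CpGs at promoters, the CpG islands, are usually kept free of methylation. DNMT3A and DNMT3B write new methylation, DNMT1 copies it at replication, and TET enzymes oxidise it on the way to its removal. Bisulfite turns unmethylated cytosine into uracil, which is read as thymine. An unmethylated cytosine that escapes conversion is therefore counted as methylated, and this background matters most where true methylation is low.

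The sequences of 5 promoters that lie in these tiles show what was read. They are the 250 bases before the RefSeq start site, 5′ to 3′ on the strand of the gene, with CpGs that were measured in all 16 libraries and lie in the tile in capitals. Sequences are from the RefSeq table of GRCm38.p6. Their places among the deposited GRCm39 sites were found by the spacing of their CpGs, and the coordinates below are those of the deposited sites. Arid1b, which encodes a subunit of the BAF chromatin remodelling complex, had the highest D12 level of the set (chr17:5045099-5045348, plus strand). Pard6a, a cell polarity scaffold, had a high mean D12 level on both strands (chr8:106427530-106427779, plus strand). Its minus strand was at only 11.3% in D12 replicate 2. Fzd7, a Wnt receptor (chr1:59521056-59521305, plus strand), Ddx24, an RNA helicase of the DEAD-box family (chr12:103392107-103392356, minus strand), and Nanos1, an RNA-binding regulator of translation (chr19:60744175-60744424, plus strand), were lower in iPSCs than in D10.
Arid1b: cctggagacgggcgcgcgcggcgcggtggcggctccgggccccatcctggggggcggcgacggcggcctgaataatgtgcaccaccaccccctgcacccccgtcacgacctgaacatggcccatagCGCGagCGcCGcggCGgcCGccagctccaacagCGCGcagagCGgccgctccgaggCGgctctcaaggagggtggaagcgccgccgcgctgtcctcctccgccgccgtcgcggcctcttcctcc
Pard6a: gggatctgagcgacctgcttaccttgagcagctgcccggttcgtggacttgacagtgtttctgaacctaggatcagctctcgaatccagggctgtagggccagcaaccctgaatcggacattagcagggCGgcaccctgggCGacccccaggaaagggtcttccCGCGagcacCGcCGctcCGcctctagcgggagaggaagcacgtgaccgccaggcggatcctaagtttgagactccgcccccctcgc
Fzd7: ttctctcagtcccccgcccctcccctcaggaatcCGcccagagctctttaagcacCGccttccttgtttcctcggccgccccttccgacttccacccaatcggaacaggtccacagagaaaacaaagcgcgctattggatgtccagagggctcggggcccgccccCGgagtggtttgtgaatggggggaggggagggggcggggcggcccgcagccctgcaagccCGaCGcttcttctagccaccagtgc
Ddx24: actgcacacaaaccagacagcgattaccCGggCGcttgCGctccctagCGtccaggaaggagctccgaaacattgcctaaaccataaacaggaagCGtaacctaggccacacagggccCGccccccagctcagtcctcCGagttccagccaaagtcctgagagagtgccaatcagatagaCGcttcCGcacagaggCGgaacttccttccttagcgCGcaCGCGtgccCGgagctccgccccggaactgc
Nanos1: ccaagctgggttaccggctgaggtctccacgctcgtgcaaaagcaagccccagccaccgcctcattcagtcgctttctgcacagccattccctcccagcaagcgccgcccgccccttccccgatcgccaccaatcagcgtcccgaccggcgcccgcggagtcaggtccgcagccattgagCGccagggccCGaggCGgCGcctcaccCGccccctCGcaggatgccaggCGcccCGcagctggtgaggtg

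MspI cuts at CCGG, a palindrome that reads the same on both strands. Upstream of start sites in the 329 tiles, 95 of 99 windows of 250 bases held CCGG, or 96.0%, against 90.3% of all placed windows and 47.8% of all windows in the table. This share counts CCGG inside the 250 bases only, so it is not the share that the enzyme can reach. Placed windows needed at least 8 listed CpGs, and the windows of the table at large did not. The median of 19 CpGs per window was the same in the placed windows at large. In the Arid1b window, 10 CpGs were measured, all on the minus strand. Each was at 0% in both D0 libraries. In D12 they were between 28.6% and 51.9% in replicate 1, and between 40% and 80% in replicate 2, at 10 reads per site there. The Nanos1 window had 8 measured CpGs, at 0% in D0 and in iPSCs. In D12 replicate 1, 7 of them lay between 19.4% and 21.3% and 1 was at 0%, and in replicate 2 all 8 lay between 17.5% and 23.3%. In Ddx24 the 14 measured CpGs lay between 11.9% and 28.1% in D12 replicate 1 and between 15.4% and 28.0% in replicate 2. The Fzd7 window was uneven: its 6 measured sites, on 5 CpGs, lay between 5% and 35.3% in D12 replicate 1 and between 21.1% and 47.2% in replicate 2. In D0 replicate 1 they lay between 0% and 29.5%, and the 2 sites farthest from the start site were higher there (29.5% and 20.5%) than in D12 replicate 1 (5% and 7.69%). In the Pard6a window, 7 CpGs were measured on both strands. Their 14 sites lay between 36.8% and 67.3% in D12 replicate 1 and between 11.1% and 37.8% in replicate 2.

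The 329 tiles were CpG-rich parts of the measured genome, as were the other tiles low in D0. The median tile held 13 common sites and 23 CpGs listed in any library, against 15 and 19 in the 7424 other tiles under 10% in both D0 libraries (the other low tiles) and 6 and 6 over all tiles. Their coverage summed over common sites was lower, with a read counted once at each site it covers. The median was 384 per library, against 632 in the other low tiles. The 7753 low tiles were split into 4 equal classes by this coverage. From the lowest to the highest class, the share in the set was 7.18%, 4.95%, 2.27% and 2.58%. The share rose with the number of CpGs, from 1.94% of low tiles with 1 to 4 CpGs to 5.48% of those with 30 or more. It also rose with the D0 level, from 3.03% at 0 to 2% to 10.5% at 8 to 10%. The set was spread over all 19 autosomes, at 2.71% to 6.73% of the low tiles of a chromosome. Adjacent tiles of the set formed 11 runs, each of 2 tiles. The first by position was chr1:36483001-36485000, at 1.40% in D0, 22.8% in D12 and 3.49% in iPSCs.

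Levels at D12 were intermediate and not full. The 329 tiles ranged from 15.5% to 59.5%, with a median of 20.8%, and 96 of them were at 20% or more and 10 at 30% or more in both D12 libraries. The D12 level of a site was taken as the mean of the 2 libraries. Of the 5395 common sites of the set, 84.9% lay between 10 and 40%, 5.06% at 40% or more and 0% at 80% or more. Sites of the Arid1b window did read 80% in D12 replicate 2 alone. In 211 tiles all common sites were at 10% or more by this mean of 2 libraries. The threshold cuts through a continuous range: 72 tiles had a lower D12 library between 15 and 16%, and 87 other low tiles had one between 14 and 15%. The tiles just inside were chr2:35146001-35147000, at 18.9% and 15.0% in D12, chr10:99098001-99099000, at 25.2% and 15.0%, and chr11:6149001-6150000, at 19.2% and 15.0%. Just outside were chr11:60006001-60007000, at 14.99% and 24.5%, chr6:29212001-29213000, at 14.97% in both, and chr19:45004001-45005000, at 21.0% and 14.97%.

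The time course was not a steady rise. The mean level of the 329 tiles was 5.02% ± 0.32 (SD over 2 libraries) in D0, 6.12% ± 0.49 in D2 and 12.5% ± 0.20 in D4. It was 10.1% ± 0.073 in D6, 13.5% ± 0.16 in D8 and 10.2% ± 0.52 in D10. It was 22.5% ± 0.19 in D12, where the tiles were chosen, and 8.34% ± 0.44 in iPSCs. The other low tiles, weighted to the same classes of D0 level and CpG number, were at 5.01%, 4.23%, 7.46%, 5.88%, 7.55%, 5.65%, 7.49% and 6.25% in the same order. Both sets thus rose and fell at the same steps from D2 to D10. The small SDs are those of means over 329 tiles, and single tiles varied far more, as given below.

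**Figure D1:**
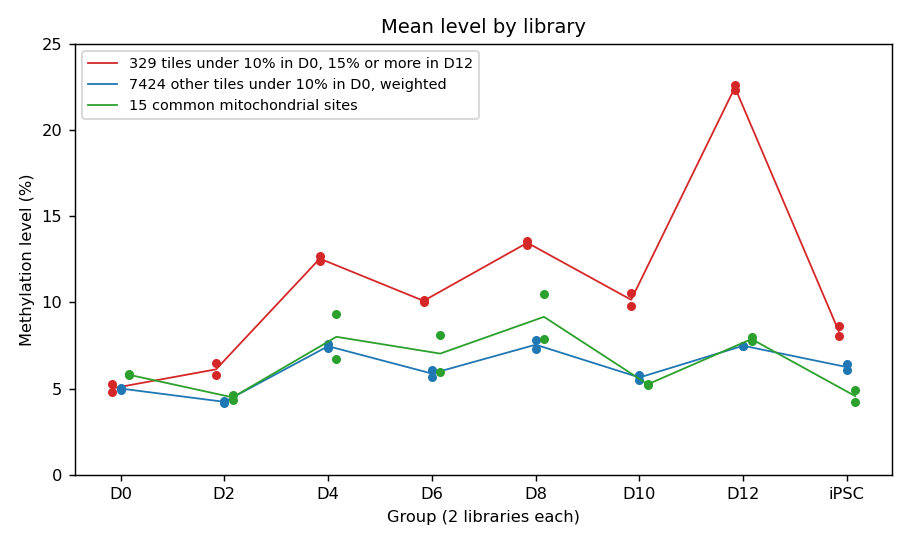
Mean methylation level (percent, y axis) in each library (points) and its group mean (lines) for the 329 tiles, for the 7424 other low tiles weighted to the same D0 level and CpG number, and for 15 mitochondrial sites. D0 and D12 chose the 329 tiles. From D2 to D10 all 3 lines go up at D4 and D8 and down at D6 and D10.

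Mitochondrial DNA gave a reading outside the nuclear tiles, since its CpG methylation is generally held to be very low. The 15 mitochondrial sites common to all libraries read 5.81% ± 0.027 (SD, n = 2 libraries) in D0 and 4.49% ± 0.20 in D2. They read 8.01% ± 1.8 in D4, 7.03% ± 1.5 in D6, 9.17% ± 1.8 in D8 and 5.25% ± 0.018 in D10. They read 7.88% ± 0.14 in D12 and 4.56% ± 0.51 in iPSCs. Over the 6 groups that the choice did not use, the mitochondrial level and the mean of the 329 tiles had Pearson r = 0.915 and Spearman rho = 0.943. Without the 2 groups farthest from the mitochondrial median, r was 0.696. For the weighted other low tiles r was 0.816, and 0.357 without those groups. Each point is 1 group of 2 libraries, and both measures come from the same conversion reaction and library. D4, D8 and D12 were thus high in mitochondrial sites, in other low tiles and in the 329 tiles. The part of incomplete conversion in the levels of the 329 tiles was not tested. At D12 the mitochondrial mean was 2.07 points above D0, the weighted other low tiles 2.48 points above, and the 329 tiles 17.5 points above, the last as chosen.

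Reading each tile on the strand that did not choose it gave a level free of the choice on that strand. Both strands of a CpG are methylated alike in most cells, but they are separate molecules after conversion. Choosing on plus-strand sites alone, by the same thresholds and at least 3 sites per strand, gave 169 tiles. Their minus strand was at 8.43% ± 0.39 in D0 and 14.6% ± 0.46 in D12 (SD, 2 libraries). Tiles under 10% on the plus strand in D0 but not chosen had 5.97% ± 0.0019 and 8.15% ± 0.086 on the minus strand. Choosing on minus-strand sites gave 202 tiles, whose plus strand went from 7.24% ± 0.071 to 12.7% ± 0.23, against 6.01% ± 0.22 and 7.85% ± 0.15 in the tiles not chosen. The unused strand was thus higher in D12 than in D0 by 6.14 and 5.50 points, against 2.18 and 1.83 points in tiles not chosen. Here the tiles not chosen were not weighted to the D0 level or CpG number of the chosen tiles. Their unused strand was lower in D0 than that of the chosen tiles. It reached 15% or more in both D12 libraries in 37 of 169 tiles, or 21.9%, and in 27 of 202, or 13.4%. The shares in tiles not chosen were 5.89% and 5.19%.

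**Figure D2:**
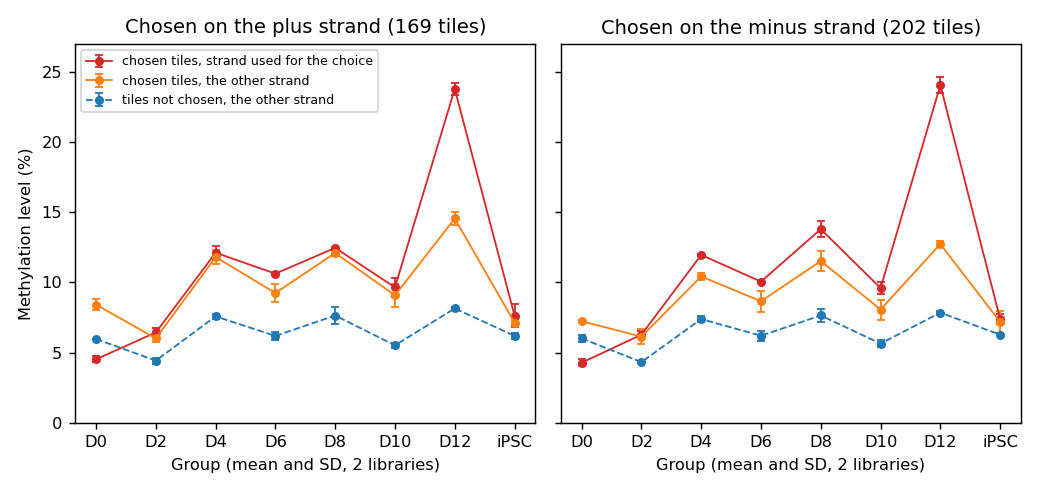
Mean methylation level (percent, y axis) by group, with SD over 2 libraries, for tiles chosen on 1 strand. The strand used for the choice reached 23.8% and 24.1% in D12, the other strand 14.6% and 12.7%, and the other strand of tiles not chosen 8.15% and 7.85%. Tiles not chosen are not weighted to the chosen ones.

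Among tiles at 50% or more in D0 and 15 to 35% in D12, the mean on the strand that chose was close to that on the other. Chosen on the plus strand, they were at 23.3% on that strand in D12 and at 22.6% on the minus strand. Their other strand was at 15% or more in both D12 libraries in 63.4% when chosen on the plus strand and in 62.9% when chosen on the minus strand. The share in tiles at 50% or more in D0 and outside that D12 range is not given. Over all tiles the median D12 level was 15.7%. These shares are therefore no like comparison with those of tiles chosen as low in D0. In the 329 tiles, 146 had at least 3 common sites on each strand. Of these, 21 were at 15% or more on both strands in both D12 libraries, and 18 had a strand whose D12 mean was under 10%. The median difference between strands was 10.9 and 11.8 points in the D12 libraries, against 4.88 and 4.85 in the other low tiles. It was 7.72 and 7.46 points in tiles at 50% or more in D0 and 15 to 35% in D12, chosen on both strands together. Their D12 level is closer to that of the set. In D0 the median difference in the set was 3.47 and 4.75 points. The other 183 tiles of the set had fewer than 3 sites on at least 1 strand, so no such comparison was made in them.

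The same loss appeared between replicates. Choosing in replicate 1 alone gave 1589 tiles, at 22.6% in D12 replicate 1 and 13.8% in D12 replicate 2. In replicate 2, 617 of them were at 15% or more, or 38.8%, against 12.8% of the low tiles not chosen. Choosing in replicate 2 gave 1562 tiles, at 22.5% there and 13.4% in replicate 1, of which 581 were at 15% or more, or 37.2%, against 12.4%. D0 moved the other way: tiles chosen under 10% in one D0 library were at 8.98% and 8.51% in the other one. Between the unused libraries of D0 and D12 the rise was therefore 4.79 and 4.91 points, against 17.4 and 17.7 points in the libraries that chose. In the tiles not chosen the unused libraries rose by 1.68 and 1.74 points. These tiles were not weighted to the D0 level or CpG number of the chosen ones.

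Libraries of 1 group disagreed in these tiles by more than the sampling of independent reads gives. The chi-square between the 2 libraries of a tile, with 1 degree of freedom, had a median of 6.53 in D2, 9.19 in D4, 9.01 in D6, 11.1 in D8, 10.4 in D10 and 6.05 in iPSCs. The other low tiles had medians of 4.09 to 8.89 in those groups. Tiles at 50% or more in D0 and 15 to 35% in D12 had medians of 0.706 to 2.51. Across the 329 tiles, the correlation between the 2 libraries was 0.132 in D2. In the other groups not used for the choice it lay between 0.240 and 0.454. In the other low tiles it was 0.233 in D2 and between 0.190 and 0.669 in those groups. Both libraries of a group share the base composition of a tile, and the tiles differed in depth. Inside 1 library, the sites of a tile and strand were compared with each other by a chi-square over its degrees of freedom. In the set the medians were 1.23 and 1.10 in the D0 libraries, 1.15 and 1.14 in D2 and 1.33 and 1.30 in iPSCs. They lay between 0.646 and 0.893 in D4 to D10 and were 0.698 and 0.629 in D12. In the other low tiles the D12 medians were 1.53 and 1.36, and in the tiles at 50% or more in D0 they were 3.19 and 2.82. Neighbouring sites are often on the same reads, no molecular identifiers are described in the labels, and 15 cycles of PCR were used. Few source molecules behind the reads of a tile were not tested as a cause.

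**Figure D3:**
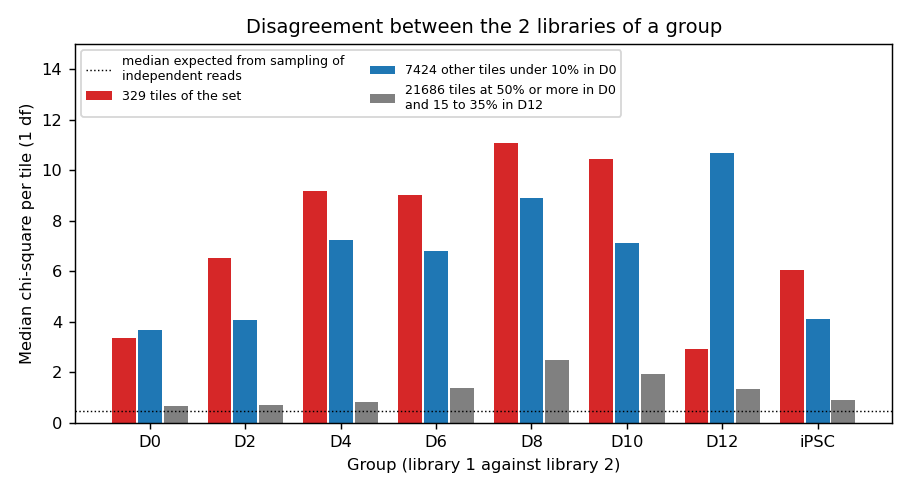
Median over tiles of the chi-square between the 2 libraries of a group (y axis, 1 degree of freedom), by group, for 3 sets of tiles. The dotted line is the median that sampling of independent reads gives. D0 and D12 chose the 329 tiles. In D2 to D10 and iPSCs their medians lie between 6.05 and 11.1.

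The groups that the choice did not use were tested against each other over all 92383 tiles. The test was edgeR's quasi-likelihood test on methylated and unmethylated reads of 12 libraries, and a tile was called at a Benjamini-Hochberg adjusted p under 0.05 and a difference of at least 10 points. Between D2 and D4, 0 of the 329 tiles were called higher and 0 lower, where 0.00108% and 0% of all tiles were called. The quasi-binomial model also called 0 in either direction at its adjusted p, as over all tiles. At an unadjusted p under 0.05 and at least 10 points, edgeR had 41 tiles of the set higher and 1 lower, where 2.32% and 0.750% of all tiles passed. The quasi-binomial model had 29 and 1 at that threshold, where 1.91% and 0.699% of all tiles passed. D4 was above D2 in 277 of 329 tiles, or 84.2%, with a median difference of 5.33 points. In the other low tiles D4 was above D2 in 75.2%, with a median of 2.27 points, and over all tiles the median was 1.09 points.

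From D4 to D10 the genome at large lost methylation, and 80.9% of all tiles were called lower. In the 329 tiles, 18 were called lower and 5 higher, where 0.108% of all tiles were called higher. The median difference was −2.67 points, against −1.46 in the other low tiles and −32.7 over all tiles. A tile near 10% cannot fall by much, so the share over all tiles is no measure for the set. In the weighted other low tiles 2.84% were called lower and 0.377% higher, against 5.47% and 1.52% of the set, and the difference between the sets was not tested. Of the 18 tiles that fell, 6 held placed start sites, those of Fzd7, Nr4a3, an orphan nuclear receptor, Rab43, a small GTPase, Gm34744 with Nectin2, a cell adhesion molecule, Maml1, a Notch coactivator, and Cnot8, a deadenylase subunit. Nr4a3 (chr4:48045001-48046000) was at 40.2% in D4 and 8.54% in D10 (adjusted p = 0.00363). Rab43 (chr6:87789001-87790000) was at 31.5% and 4.01% (adjusted p = 0.00835). The 5 tiles that rose had no placed start site and are named here after their values were seen. They were chr2:90884001-90885000, chr2:179761001-179762000, chr7:67600001-67601000, chr14:71128001-71129000 and chr18:14815001-14816000. The promoter table had no windows on chromosome 18, so no start site could be placed in the last of them. The count of 5 became 12 without D4 replicate 2 and 9 without D10 replicate 2. The quasi-binomial model called 12 tiles of the set lower and 1 higher, where it called 79.2% and 0.0801% of all tiles.

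From D10 to iPSCs the genome regained methylation, and 76.0% of all tiles were called higher, whereas 1.75% were called lower. In the 329 tiles 11 were called higher and 24 lower, and in the weighted other low tiles 4.53% were higher and 1.48% lower. The median difference was −1.73 points in the set, 0.084 points in the other low tiles and 32.6 points over all tiles. The count of 11 was 7 without D10 replicate 2, without iPSC replicate 1 or without iPSC replicate 2, and the count of 24 was 16 to 26 over the libraries left out. With the quasi-binomial model 10 were higher and 13 lower, where it called 74.6% and 1.46% of all tiles. Of the 24 tiles that fell, 9 held placed start sites: Fzd7, Ddx24, Nanos1, Med26, Six3os1, Cmtr2, Ice1, Ube2f and Ifitm10. These encode, among others, a Mediator subunit (Med26), an RNA cap methyltransferase (Cmtr2), a subunit of the little elongation complex (Ice1) and an enzyme that conjugates NEDD8 (Ube2f). The names were placed after the values were seen, and they are 9 of the 88 tiles of the set with a start site.

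Between D2 and iPSCs, 11 of the 329 tiles were called higher and 1 lower, where 6.50% and 8.02% of all tiles were called. The weighted other low tiles were called higher in 3.07%, close to the 3.34% of the set. The tile called lower was chr1:39407001-39408000, named after its values were seen, at 15.0% in D2 and 3.54% in iPSCs (adjusted p = 0.0081). The quasi-binomial model called 6 tiles of the set higher and 1 lower, where it called 5.97% and 6.86% of all tiles. The count of 11 was 6 without D2 replicate 2 and 5 without iPSC replicate 1, and the count of 1 was 0 without D2 replicate 2 and 2 without D2 replicate 1. In iPSCs, 181 of the 329 tiles were back under 10% in both libraries, 23 were at 15% or more in both, and 2 at 50% or more in both. The weighted other low tiles were under 10% in both iPSC libraries in 73.1% and at 15% or more in both in 3.81%.

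The 4 tiles highest in iPSCs were not the highest in D12. chr13:98064001-98065000 read 2.93% and 6.79% in D10, 15.1% and 16.8% in D12 and 66.5% and 70.3% in iPSCs, and the iPSC libraries stood clear of all others. iPSCs were 63.5 points above D10 (adjusted p = 2.18e-05). chr9:66916001-66917000 read 4.96% and 0.431% in D10, 20.8% and 18.6% in D12 and 57.7% and 53.6% in iPSCs, after 31.4% and 0% in D8. iPSCs were 52.9 points above D10 (adjusted p = 0.018). chr12:25144001-25145000 read 47.2% and 33.9% in iPSCs, 36.9 points above D10 (adjusted p = 0.0032). chr2:90720001-90721000 read 44.6% and 29.3% in iPSCs, but 25.6% and 0% in D10, and the difference was not called (adjusted p = 0.25). None of these 4 tiles held a placed start site.

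Tiles at 20% or more in both D12 libraries and lowest in iPSCs were read at or near 0% there. chr2:91087001-91088000 was at 44.4% and 33.3% in D12 and 0% in both iPSC libraries, on only 3 sites. It had 39.7% and 17.6% in D10 (adjusted p = 0.0238 for iPSC against D10). Six3os1, transcribed opposite the forebrain factor gene Six3, lies at chr17:85925001-85926000. It read 0.532% and 0% in D0, 9.09% and 16.04% in D2, 15.6% and 11.2% in D4 and 0% and 22.7% in D6. It then read 28.9% and 30.2% in D8, 12.1% and 16.8% in D10 and 25.7% and 20.0% in D12. Both iPSC libraries read 0% (adjusted p = 0.0154 for iPSC against D10). Ddx24 read 18.2% and 27.9% in D10, 23.4% and 21.5% in D12 and 0% and 0.361% in iPSCs (adjusted p = 0.00446). Its D4 libraries read 0.444% and 19.5%, so they lay far apart. Med26 (chr8:73302001-73303000) read 28.3% and 5.63% in D10, 25.8% and 35.4% in D12 and 0% and 0.667% in iPSCs (adjusted p = 0.0271). Its D2 libraries read 24.3% and 4.73%.

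Nanos1 and Fzd7 were called lower in iPSCs than in D10, and both libraries were close to each other in D10. Nanos1 (chr19:60744001-60745000) read 0% and 1.23% in D0, 35.5% and 11.8% in D4, 37.3% and 6.41% in D6, 15.3% and 20.7% in D8. It then read 26.4% and 23.2% in D10, 18.4% and 21.4% in D12 and 0% in both iPSC libraries (−24.8 points from D10, adjusted p = 0.00493). Its D4 and D6 libraries lay far apart, and its D8 and D10 libraries were all above those of D2 and iPSCs. Fzd7 (chr1:59521001-59522000) read 8.42% and 6.91% in D0, 12.4% and 16.7% in D2 and 40.9% and 30.4% in D4. Its D10 libraries read 22.9% and 22.7%, its D12 libraries 18.4% and 28.9%, and its iPSC libraries 6.06% and 5.06% (adjusted p = 0.00044). Both are described here because their values were seen.

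**Figure D4:**
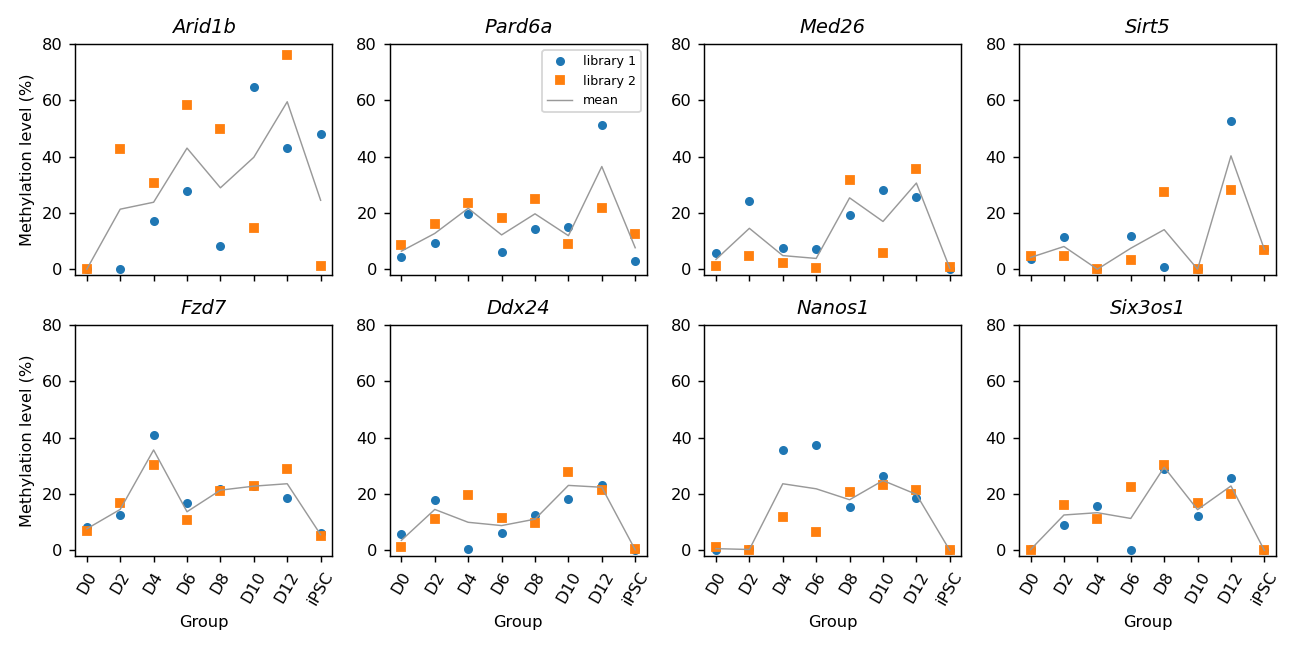
Methylation level (percent, y axis) of 8 tiles with a placed start site, by group, with 1 point for each library and a line through the means. In Arid1b the 2 libraries of D10 read 64.8% and 14.8% and those of iPSCs 47.9% and 1.09%. In Nanos1 and Six3os1 both iPSC libraries read 0%.

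In most of the 6 tiles highest in D12, the libraries of a group lay far apart. Arid1b (chr17:5045001-5046000) read 0% in both D0 libraries, 0% and 42.6% in D2, 17.1% and 30.5% in D4 and 27.6% and 58.4% in D6. It read 8.11% and 49.7% in D8, 64.8% and 14.8% in D10, 43.0% and 76.0% in D12 and 47.9% and 1.09% in iPSCs. Its coverage summed over 10 sites was 100 to 485 per library, with a read counted once at each site it covers. None of the 4 contrasts called Arid1b. chr5:142891001-142892000 read 61.8% and 35.3% in D12 after 1.29% and 6.90% in D10. chr10:44144001-44145000, on 3 sites, read 40.5% and 51.5%, and chr19:5618001-5619000 read 25.6% and 61.1%. Sirt5, a mitochondrial deacylase (chr13:43519001-43520000), read 52.5% and 28.0% in D12, but 0% in both libraries of D4 and of D10. chr14:26836001-26837000 read 50.0% and 29.7% in D12.

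Tiles with a high mean D12 level on both strands were fewer, and some were not low on both strands in D0. chr17:56316001-56317000, on 44 sites, had 46.9% and 22.6% on the plus strand and 48.4% and 33.8% on the minus strand. In D0 its plus strand was at 12.5% and 0.129% and its minus strand at 5.48% and 19.7%. It was also at 28.4% and 27.5% in D10 and fell by 13.97 points to iPSCs (adjusted p = 0.0119). Pard6a (chr8:106427001-106428000) had 43.1% and 26.2% on the plus strand and 59.1% and 11.3% on the minus strand. The minus strand carried the larger difference between replicates, and the plus strand was at 6.53% and 12.4% in D0. Med26 had 24.7% and 36.0% on the plus strand and 31.7% and 32.4% on the minus strand. chr15:83394001-83395000 had 38.1% and 59.0% on the plus strand and 30.0% and 26.8% on the minus strand. Its plus strand was already at 13.4% and 19.5% in D0. It read 32.5% and 25.8% in D4 but 4.92% and 4.39% in D10, and fell by 24.5 points between them (adjusted p = 0.0005). Its D6 libraries read 15.9% and 18.9%, its D8 libraries 31.6% and 22.3% and its iPSC libraries 14.8% and 5.28%.

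Start sites were placed in 88 of 315 tiles of the set on the chromosomes that the promoter table covers, or 27.9%. Chromosome 18 is not among them. The share was 25.9% in the weighted other low tiles and 3.50% over all tiles. Lists of pluripotency, fibroblast, germline, imprinted, housekeeping and developmental genes, and of the methylation enzymes, were looked up among 5163 placed genes. The list of developmental transcription factors held 36 genes. Of these, 6 had a start site in a low tile, and 1 of them, Sox11, was in the set. Factors outside the list were not counted. Start sites of the transcription factor genes Uncx and Pou3f3, which the list count does not include, also lay in tiles of the set, at 23.2% and 21.0% in D12. Sox11 is a factor of neural development (chr12:27392001-27393000). It read 9.36% and 6.38% in D0, 22.4% and 15.2% in D12 and 13.7% and 17.9% in iPSCs. The other lists had 0 genes in the set, with 1 pluripotency, 2 fibroblast and 4 housekeeping genes in low tiles and none for the remaining lists. A gene not placed was not examined.

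Of the 329 tiles, 166 had a measured tile next to them. Of their 185 neighbours, 91 were low in D0, or 49.2%, and 20 were at 50% or more. The neighbours had a mean of 17.0% in D0, 12.9% in D12 and 13.8% in iPSCs. The 69 neighbours that were low in D0 and outside the set, and so low by their definition, went from 3.97% in D0 to 8.03% in D12 and 4.05% in iPSCs. The other low tiles as a whole were at 4.21% in D0, 7.01% in D12 and 5.87% in iPSCs.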

How the data were processed

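DNA methylation was measured by RRBS in 16 mouse libraries, 2 in each of 8 groups, and samples were grouped by their labels. The submitters' processing notes name fastp 0.20.1, Bismark 0.23.0, Bowtie2, methylKit and the build GRCm39, while duplicate handling and trimming settings are not stated. In the authors' deposited tables, coverage is a read count per CpG site and strand, with no site under 10 reads, and the methylation level is a percent of these reads, per the file headers. Methylated read counts were computed as coverage times percent.

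Sites with at least 10 reads in all 16 libraries were 857278 of 3088148 on chromosomes 1 to 19, or 27.8%. They were summed in tiles of 1000 bases from base 1. The 329 tiles, the gene lists and the tests were chosen with earlier results of these data known. The other low tiles were weighted to the tiles of the set in 5 classes of D0 level (steps of 2%) and 5 classes of CpG number (1 to 4, 5 to 9, 10 to 19, 20 to 29, 30 or more). edgeR 4.0.16 (R 4.3.3) fitted an effect for each library and a methylation coefficient for each group to 12 libraries, without D0 and D12, with a common dispersion and 6 residual degrees of freedom. Benjamini-Hochberg adjustment ran over all 92383 tiles. The models were also run on simulated tiles, with a set spread between libraries that was not taken from the 329 tiles. That run is therefore no measure of error in the calls of the set. Levels are given as mean ± SD over 2 libraries, and 2 against 2 libraries allow no low exact permutation p, so the means carry no test. No molecular identifiers are described in the labels, so intervals of single sites would cover counting error only.

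Named tiles were the 6 highest in D12, the 5 highest on their lower strand, the 4 highest and 4 lowest in iPSCs (the latter among tiles at 20% or more in both D12 libraries), and the 3 on each side of the threshold. The largest D4 minus D2 differences among called tiles were also to be named, and no tile of the set was called there. The longest run was to be named too, with ties by position, and the first of the 11 runs of 2 tiles is given. The plan was to name no gene without an annotation of the build. After the values were seen, RefSeq promoter windows (GRCm38.p6, Python 3.11.15) were placed by the spacing of at least 8 listed CpGs, and 5569 of 31396 windows were used, for 5163 genes. The reading on the other strand, the mitochondrial sites and the spread between sites of a tile were also added after the data were seen. Alternatives covered the coverage minimum, the choice of sites, strands and tiles, the thresholds, the model, the replicate block and each library left out.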

Additional observations from a re-analysis of the deposited data

Results flagged for a closer look

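Mitochondrial CpG sites lay outside the comparisons of tiles. On the 15 sites common to all libraries, both libraries of 4 groups read above both D0 libraries (5.83% and 5.79%). The means were 8.01% in D4, 7.03% in D6, 9.17% in D8 and 7.88% in D12. D2, D10 and iPSCs read below D0. In D4 replicate 1 the deposited table also listed 430 mitochondrial sites, with a summed level of 30.5%, against 18 to 175 sites in the other libraries, at 4.35% to 11.4%. The 15 common sites of that library read 9.31%, against 6.71% in D4 replicate 2, while the 329 tiles read 12.4% and 12.7%. The part of these mitochondrial readings in the levels of the 329 tiles was not tested.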

How the results depend on the processing

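The set depends on its thresholds and sites. It held 93 tiles with at least 20 reads per site, 528 with sites common to the 4 D0 and D12 libraries only, and 96 with a D12 threshold of 20%. Over the 4 libraries left out in turn it held 581 to 1040 tiles. In the other 5 alternatives the count stayed within 1.5 times of 329. The replicate numbers did not pair the libraries: over 28 pairs of groups, the correlation of their deviations lay between −0.0152 and 0.0075. With the replicate block, 2 tiles were called lower in iPSCs than in D2, against 1 without it, and the other 7 counts stayed within 1.5 times.

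For D10 against D4, the count of 5 higher was 8 with a minimum difference of 5 points, 1 with 25 points, 1 with the quasi-binomial model and 0 with 20 reads per site. The count of 18 lower was 29, 3 and 4 with 5 points, 25 points and 20 reads. For iPSC against D10, the 11 higher were 3 with 25 points and 2 with 20 reads, and the 24 lower were 4, 7 and 13 with 25 points, 20 reads and the quasi-binomial model. For iPSC against D2, the 11 higher were 3, 2 and 6 in that order. The 1 lower was 2 with 5 points, 0 with 25 points, 2 with 20 reads and 4 with all 16 libraries. With 20 reads the set itself holds 93 tiles. Over the libraries left out, with the lone library of a group assumed to vary like the other groups, the counts in order were 4 to 12 and 14 to 19 for D10 against D4, 7 to 12 and 16 to 26 for iPSC against D10, and 5 to 9 and 0 to 2 for iPSC against D2. D4 against D2 had 0 calls in either direction in each of these settings, at tests of this size.

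Mean levels moved by more than their SD in several settings. With 20 reads they were 4.47%, 5.33%, 10.5%, 9.09%, 12.4%, 8.74%, 21.2% and 7.60% from D0 to iPSC. On plus-strand sites D4, D6, D8 and D12 were at 12.3%, 10.3%, 12.7% and 22.2%. On minus-strand sites D0, D6, D10 and D12 were at 5.56%, 9.85%, 9.51% and 22.0%. Chosen in replicate 1 and read in replicate 2, D0, D4, D6, D8 and D12 were at 8.98%, 11.8%, 9.64%, 12.4% and 13.8%. In the reverse, D0, D4, D6, D8, D10, D12 and iPSC were at 8.51%, 12.1%, 9.42%, 12.8%, 9.30%, 13.4% and 9.14%. The cause of these shifts was not tested, apart from the choice of tiles in 1 replicate, which by construction frees the other. The set had a median summed coverage of 384 per library, against 632 in the other low tiles.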
